A study of Caenorhabditis elegans with 2 samples.

Results

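The nuclear hormone receptor genes of Caenorhabditis elegans were examined for SAEG-2 binding in L4 larvae. They were taken as every protein-coding gene whose symbol is nhr- followed by a number, which gave 269 of the 19973 protein-coding genes of the WBcel235 annotation. SAEG-2 was mapped by chromatin immunoprecipitation and sequencing (ChIP-seq) of whole animals with an anti-GFP antibody. The animals were of strain RW12230, genotype st12230[saeg-2::TY1::EGFP::3xFLAG] III, in which CRISPR placed the TY1, EGFP and 3xFLAG tags at saeg-2 itself. They were L4 larvae of 48 h from bleached cultures starved as L1 larvae, and chromatin was sonicated to 200 to 800 bp. The samples form 1 group of 2 biological replicates of this single tagged strain, with no second genotype or treatment, so receptor genes are set against other protein-coding genes. No control precipitation was analysed here, so binding of SAEG-2 cannot be told apart from a general recovery of open chromatin at the same places. In whole larvae, binding in few cells cannot be told apart from weak binding in many.

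Nuclear hormone receptors are transcription factors with a zinc-finger domain that reads DNA and a second domain that can bind a small lipophilic molecule. Nematodes have an unusually large family of them, most of it related to the hepatocyte nuclear factor receptor of vertebrates, and many of the genes lie in clusters. Members with a known role in worms adjust fat metabolism, vitamin B12-dependent metabolism, detoxification, moulting and responses to stress. SAEG-2 is named as a suppressor of activated EGL-4, a cGMP-dependent protein kinase that acts in chemosensory neurons.

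SAEG-2 peaks marked 13 receptor genes: nhr-1, nhr-3, nhr-8, nhr-17, nhr-19, nhr-35, nhr-47, nhr-48, nhr-57, nhr-68, nhr-114, nhr-135 and nhr-142. A gene counted as bound where the summit of a peak lay from 1000 bp upstream to 500 bp downstream of one of its annotated 5′ ends, its promoter window, or inside the gene. The peaks are the 1145 of the conservative list made from both replicates together. The 13 genes are 4.83% of the receptor genes (95% Wilson interval 2.85 to 8.09), against 833 of 19704 other protein-coding genes, or 4.23% (3.96 to 4.52). Over all protein-coding genes 4.24% were bound by the same rule, which lies inside the receptor interval. Through the promoter window alone 10 receptor genes were bound, where 3.1% of all protein-coding genes were. The receptor genes as a family were thus marked about as often as other genes. Per length of sequence the result was the same in kind: 14 summits fell in the 1.15 Mb covered by receptor windows and genes, or 12.1 per Mb (exact Poisson interval 6.63 to 20.3), and 812 in the 74.3 Mb of other protein-coding genes, or 10.9 per Mb (10.2 to 11.7). Intervals cover counting error only, and neighbouring genes are not independent.

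The 5 strongest receptor sites are shown by the reference bases around their summits, because they alone were also found in the thresholded list of a replicate. Each runs 5′ to 3′ on the plus strand of WBcel235 (RefSeq copy) and covers the summit with 50 bases on each side, except that nhr-47 ends at the base before its transcript. Capitals mark the letters of a motif: TGATAA, the core bound by GATA factors, which reads TTATCA on this strand, and GAGAGA, which reads TCTCTC, in nhr-68, and AGGTCA, a half-site of nuclear receptors, and GTTCGA, part of the internal promoter of tRNA genes, in nhr-17.
nhr-68, chrV:11573004-11573104: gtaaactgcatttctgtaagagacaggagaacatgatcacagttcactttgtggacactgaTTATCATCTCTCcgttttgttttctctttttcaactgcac
nhr-47, chrV:5505185-5505252: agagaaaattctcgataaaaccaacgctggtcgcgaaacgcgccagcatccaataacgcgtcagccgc
nhr-3, chrX:14560380-14560480: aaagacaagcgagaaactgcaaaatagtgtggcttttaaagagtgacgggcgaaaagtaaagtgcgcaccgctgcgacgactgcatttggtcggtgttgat
nhr-17, chrX:12665199-12665299: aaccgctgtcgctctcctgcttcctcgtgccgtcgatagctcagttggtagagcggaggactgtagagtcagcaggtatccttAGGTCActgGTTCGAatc
nhr-35, chrX:4532280-4532380: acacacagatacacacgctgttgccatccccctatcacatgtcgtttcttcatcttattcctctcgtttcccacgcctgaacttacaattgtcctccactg

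The 4 letter patterns were searched on both strands within 50 bp of every summit, and they do not overlap one another in the sequences shown. AGGTCA was in 1 of the 14 receptor peaks (7.14%), at nhr-17, and in 36 of the 1131 other conservative peaks (3.18%). TGATAA was in 1 receptor peak (7.14%), at nhr-68, and in 120 of the others (10.6%). GAGAGA was in 3 receptor peaks (21.4%), at nhr-1, nhr-48 and nhr-68, and in 198 of the others (17.5%). GTTCGA was in 1 (7.14%), at nhr-17, and in 105 of the others (9.28%). With 14 peaks each pattern rests on 1 to 3 matches, and a match is a description of the letters, not a site. The GC content of these windows ran from 37.6% to 55.4% with a median of 47.5% at receptor genes, and from 19.8% to 79.2% with a median of 48.5% elsewhere.

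The highest receptor peak stood upstream of nhr-68, which in worms acts with nhr-10 to turn on the propionate shunt, a breakdown route used when vitamin B12 is short. Its interval is chrV:11572955-11573106, with the summit 386 bp upstream of the transcript. The signal value, the authors' own measure of a peak's strength in units that are not stated, was 261 in the conservative list, rank 45 of 1145. It was 124 in replicate 1 and 133 in replicate 2. The peak was in both replicate lists at the lowest irreproducible discovery rate (IDR) the files can hold, 1e-05. The IDR is lower where peaks rank alike between the 2 sets compared. The summit also lies 64 bp upstream of the divergent gene H12C20.7, whose 5′ end is 450 bp from that of nhr-68, so the peak cannot be given to one of them alone.

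nhr-47 had the next highest value, 137 in the conservative list, with 72.2 in replicate 1 and 69.0 in replicate 2, each in its thresholded list. The summit was 18 bp upstream of the transcript in the pooled peak chrV:5505083-5505386. It lies in the noncoding gene C24G6.10 and 378 bp upstream of the divergent gene dnj-19, a relative of DnaJ co-chaperones. The 5′ ends of nhr-47 and dnj-19 are 396 bp apart. Both of the highest receptor peaks were therefore in gaps between divergent genes.

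At nhr-35 the peak chrX:4532178-4532481 stood 361 bp upstream of the transcript with a value of 118. Replicate 1 gave 50.4 and replicate 2 gave 66.9, and both lists held it. Of the 4 receptor peaks in both replicate lists this is the one upstream of a receptor gene with no other protein-coding gene in reach.

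The other 2 of the 5 strongest receptor peaks were in introns. nhr-17 had a value of 122 at chrX:12665097-12665400, 2605 bp downstream of the 5′ end, with 54.6 in replicate 1 and 63.4 in replicate 2, both in their lists. This summit lies in a tRNA gene of 84 bp on the strand opposite to nhr-17, chrX:12665228-12665311, and in the noncoding gene C02B4.8. The AGGTCA and GTTCGA letters printed above for nhr-17 both fall inside that tRNA gene. Of the 1145 conservative peaks, 130 had a summit within 100 bp of a tRNA gene, and without them nhr-17 drops out of the bound receptors and 12 remain. Whether the peak belongs to nhr-17 or to the tRNA gene cannot be told apart by position. At nhr-3 the intron peak chrX:14560278-14560581, 1926 bp downstream of the 5′ end, had a value of 125. It was 65.7 in replicate 1, within its list, and 55.4 in replicate 2, where its IDR of 0.528 kept it out.

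**Figure D1:**
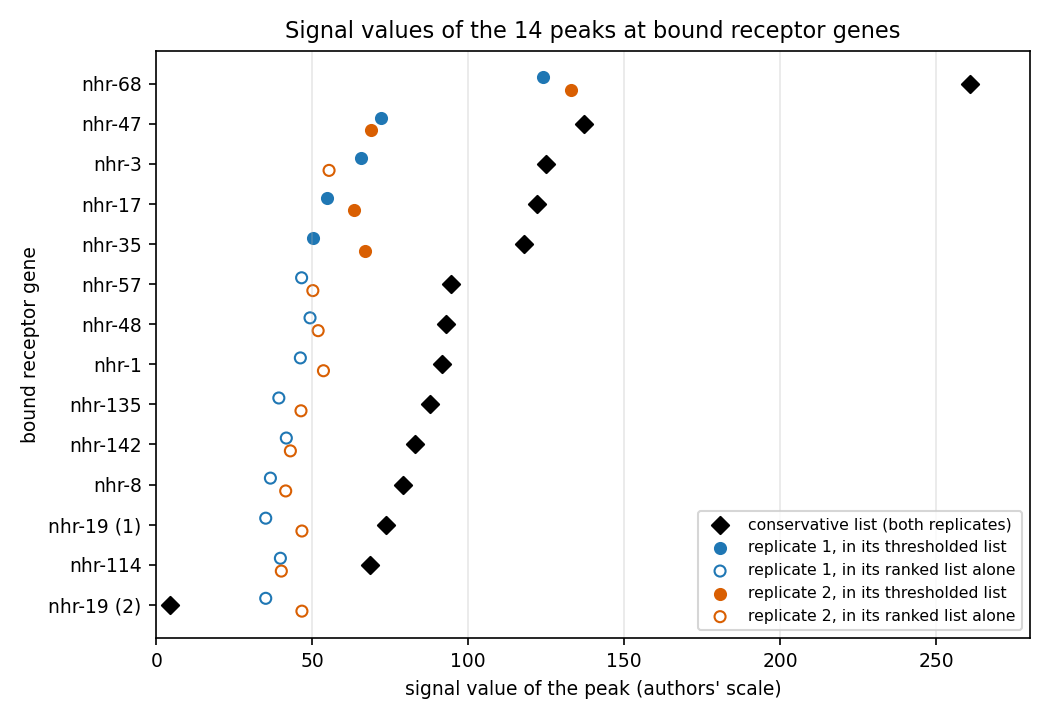
Signal values of the 14 conservative peaks at bound receptor genes, on the authors' scale. Diamonds give the list made from both replicates, circles each replicate, filled where its thresholded list holds the peak and open where only its ranked list does; nhr-19 has a pair of overlapping peaks, numbered by height. nhr-68 stands apart at 261, and below nhr-35 every circle is open.

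The remaining 8 bound receptor genes were called from both replicates together, and their peaks were in the thresholded list of neither replicate. Their values below are from each replicate's ranked list, which also holds weaker peaks. nhr-57, which is induced by hypoxia through HIF-1, had a peak 170 bp upstream at chrV:4131567-4131870, with a value of 94.5. Replicate 1 gave 46.6 and replicate 2 gave 50.2. nhr-48 had a value of 93.0 at chrX:15707524-15707827, 537 bp upstream, with 49.3 and 51.9 in replicates 1 and 2. It belongs with nhr-8 and daf-12 to the branch related to the vitamin D and xenobiotic receptors of vertebrates. nhr-8 itself, which acts in toxin resistance and cholesterol balance, had a value of 79.1 at chrIV:7710885-7711188. Its summit was in the 5′ UTR, 49 bp downstream of the nearest 5′ end, with 36.6 in replicate 1 and 41.5 in replicate 2.

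nhr-114 was the other bound receptor with a known link to vitamin B12: in worms it protects germline and fertility when the vitamin is scarce. Its peak chrV:4187655-4187958 had the lowest value of a receptor gene with a single conservative peak, 68.5, with 39.8 in replicate 1 and 40.1 in replicate 2. The summit was in a coding exon, 604 bp downstream of the nearest 5′ end and within the promoter window of an internal one, and also in an intron of Y45G5AM.9 on the other strand. Replicate 1 had a further nhr-114 peak in its thresholded list, 531 bp upstream, with a value of 36.2 and an IDR of 0.00591. In replicate 2 the same place had 19.9 and an IDR of 0.796. The calls of the 2 replicates at nhr-114 thus fell apart, although the pooled list bound the gene.

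nhr-1, nhr-135 and nhr-142 each had 1 peak upstream. At nhr-1 it was 347 bp upstream with a value of 91.5, and 46.2 and 53.6 in replicates 1 and 2. At nhr-135 it was 158 bp upstream with 87.9, and 39.3 and 46.4 in replicates 1 and 2. These sites lie well inside the promoter window and are shared with no other protein-coding gene. At nhr-142 the summit was 508 bp upstream with a value of 82.9, and 41.7 and 43.0 in replicates 1 and 2. It also lay 169 bp upstream of the divergent gene F44E7.9, 677 bp from the nhr-142 5′ end to that of its neighbour.

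nhr-19 held a pair of overlapping intron peaks with values of 73.7 and 4.32, 3918 and 3718 bp downstream of the nearest 5′ end. Both overlap the same replicate peaks, of 35.1 in replicate 1 and 46.7 in replicate 2, so they are not independent sites. A further place in the gene, 1617 bp downstream, was in the thresholded list of replicate 2 with a value of 86.2 and an IDR of 0.000204. In replicate 1 it had 29.2 and an IDR of 0.342, and the conservative list does not hold it. The non-conservative list does, with a value of 118, and has one more nhr-19 peak of 74.4. The strongest site of nhr-19 was in the thresholded list of replicate 2 and not in that of replicate 1.

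Of the 14 receptor peaks, 8 had summits upstream of the gene, at 18 to 537 bp, 4 in introns, 1 in a 5′ UTR and 1 in a coding exon. Bound through the gene body alone were 3 of the 13 receptor genes (23.1%) and 224 of the 833 other bound genes (26.9%). Every summit was shared with another protein-coding gene at 4 receptor genes (30.8%), nhr-47, nhr-68, nhr-114 and nhr-142, and at 288 of the other bound genes (34.6%). All 4 of these receptor genes are on chromosome V.

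**Figure D2:**
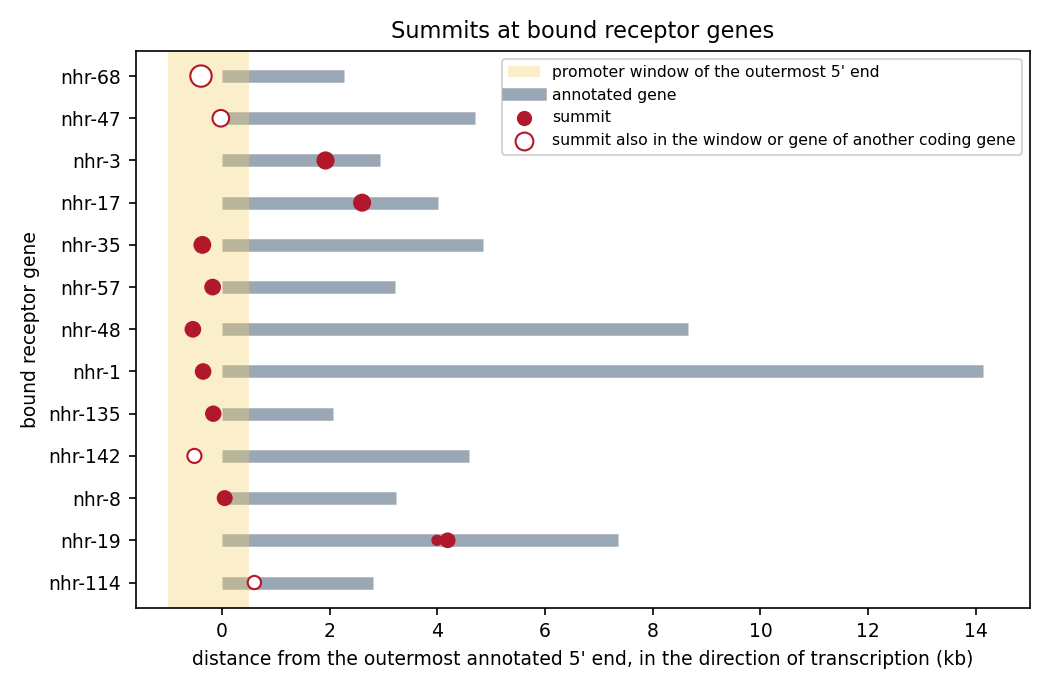
Summits of the 14 peaks along the 13 bound receptor genes, in kb from the outermost annotated 5′ end in the direction of transcription; grey bars are the annotated genes and point area grows with signal value. Open points at nhr-68, nhr-47, nhr-142 and nhr-114 are summits also in reach of another protein-coding gene; 8 of the 14 summits lie just left of the gene start, and those of nhr-3, nhr-17 and nhr-19 lie well inside the gene.

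Replicate support was like that of other genes when counted by gene. Replicate 1 alone bound 6 receptor genes where 1.92% of all protein-coding genes were bound, and replicate 2 alone bound 5, where 2.07% were. The lists of the 2 replicates hold 452 and 541 peaks. Both lists bound nhr-17, nhr-35, nhr-47 and nhr-68, replicate 1 alone nhr-3 and nhr-114, and replicate 2 alone nhr-19. The lists of neither replicate bound nhr-1, nhr-8, nhr-48, nhr-57, nhr-135 and nhr-142. At least one replicate list bound 7 of the 13 receptor genes (53.8%) and 470 of the 833 others (56.4%), and both bound 4 (30.8%) and 253 (30.4%).

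Counted by peak, fewer receptor sites stood in the upper part of the list, though with 14 peaks this is a description only. The signal value ran from 4.32 to 261 with a median of 92.3 at receptor peaks, and from 2.06 to 589 with a median of 97 at the other 1131. In the upper 50% of the list by value were 5 receptor peaks (35.7%) and 567 others (50.1%). Neither replicate list held 9 of the 14 receptor peaks (64.3%) and 527 of the others (46.6%), while both held 4 (28.6%) and 297 (26.3%). In the ranked lists the 14 receptor peaks had medians of 46.4 in replicate 1 and 51.1 in replicate 2, against 46.3 and 53.5 for other peaks. Replicate 2 had the higher value at 12 of the 14 receptor peaks (85.7%) and at 755 of 1115 others (67.7%), the same direction in both. The files used give no read totals; depth is thus unknown, and its part in these differences was not tested.

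The clustered receptors of chromosome V are the main division within the family. Chromosome V carries 167 of the 269 receptor genes, IV carries 33, I and X carry 23 each, II carries 15 and III carries 8. A run was defined as 3 or more receptor genes whose neighbours lie at most 20 kb apart. By this rule 102 of the 167 on V fell into 17 runs, the largest of them 12 genes from nhr-123 to nhr-131, and 31 on other chromosomes into 8 runs of at most 6.

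In the conservative list no receptor gene in a run was bound, on V or elsewhere. The count was 0 of 102 in the V runs and 0 of 31 in runs elsewhere. A limit of 3 counts in the total puts these shares at up to 2.94% and 9.68%, and limits beside other counts of 0 are of the same kind. Outside runs, 6 of 65 receptor genes on V (9.23%, 4.3 to 18.7) and 7 of 71 elsewhere (9.86%, 4.86 to 19.0) were bound. The Wilson interval of the V run genes, 0 to 3.63%, does not overlap that of the V receptor genes outside runs. The run genes lie side by side in 17 runs and are not independent, so their interval is too narrow to serve as a test. The gap also rests on the least size of a run. nhr-68 lies 891 bp from nhr-101 and nhr-135 lies 104 bp from nhr-286, and with runs of 2 or more, added after the data were seen, 2 of 128 V run genes were bound (1.56%, 0.43 to 5.52) and 4 of 39 outside (10.3%, 4.06 to 23.6), whose intervals overlap. Over all chromosomes, 13 of 136 receptor genes outside runs were bound (9.56%, 5.67 to 15.7), an interval above the 4.23% of other protein-coding genes. The 2 sets are not alike, since the other genes were not split by clustering. The 136 had a median length of 2815.5 bp, against 2020.5 bp for other genes, and the part of length was not tested. Of the 13 bound, 5 are on X. The 6 on V include 4 whose only summit is shared with another gene, and 2 are left where just summits in reach of 1 protein-coding gene count. Taken by chromosome alone, 6 of 167 on V (3.59%, 1.66 to 7.62) and 7 of 102 elsewhere (6.86%, 3.36 to 13.5) were bound, and these intervals overlap. Other protein-coding genes showed the same order between chromosomes, with 132 of 4827 on V (2.73%, 2.31 to 3.23) and 701 of 14877 elsewhere (4.71%, 4.38 to 5.06). In the lists of both replicates the counts in runs on V and elsewhere were 0 too. In the non-conservative list 0 of 102 were bound in the V runs and 1 of 31 in runs elsewhere, nhr-27.

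**Figure D3:**
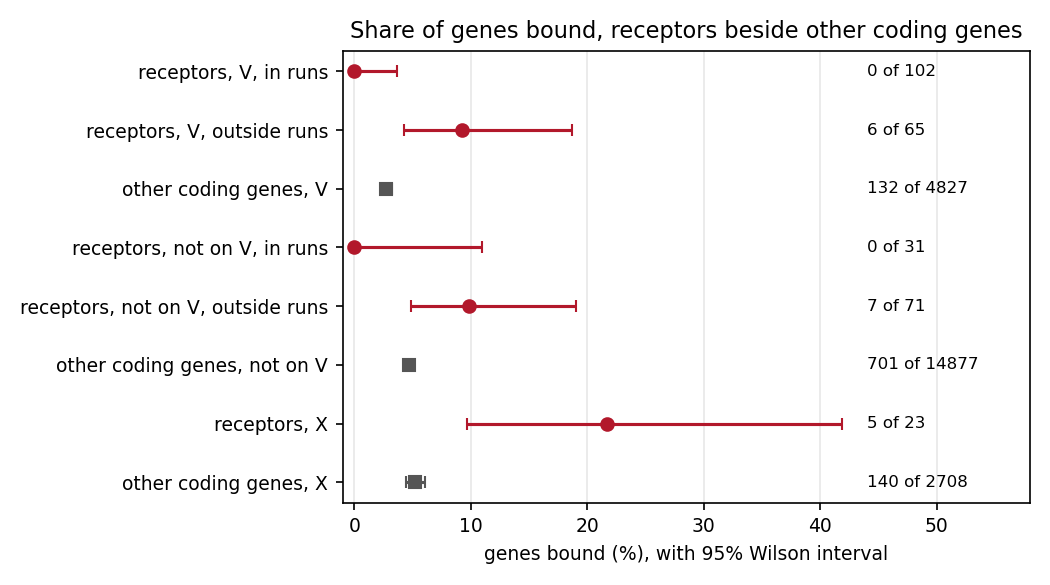
Percentage of genes bound in the conservative list, with 95% Wilson intervals, for receptor genes (circles) and other protein-coding genes (squares); counts stand at the right. Receptor genes in runs are at 0 of 102 on V and 0 of 31 elsewhere, while those outside runs are at 9.23% and 9.86%, and those of X at 21.7%.

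The other genes in and around the V runs were unbound as well. The 17 V runs span 442 kb and contained no conservative summit, and neither did the 305 kb of runs elsewhere. At the rate of the whole of chromosome V the V spans would hold 3.87 summits. The windows and genes of the V run members would hold 2.7 at the rate of other V genes, 9.09 per Mb, and the exact Poisson interval of their 0 summits, 0 to 12.4 per Mb, contains that rate. Of the 52 other protein-coding genes inside the V spans 0 were bound. That count follows almost wholly from the empty spans, since only a window reaching past a span edge could have held a summit. Of the 252 inside or within 20 kb of them 0 were bound, which allows up to 1.19% and lies below the 2.73% of other V genes. This last count was added after the empty runs had been seen. In these stretches of V the other genes thus lacked summits in their windows and bodies, as the receptor genes did. The ground beside the runs was not empty. Summits outside every coding gene's window and body lay 2475 bp from the 5′ end of nhr-102 and 5620 bp from that of nhr-60. The first was just past the 3′ end of nhr-102, a gene of 2316 bp, which is also the edge of its run. The unbound call of nhr-102 and the empty span of its run thus turned on that edge.

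Weak peaks were called in the V runs too, less densely than on the chromosome as a whole in both replicates and more clearly so in replicate 1. The ranked list of replicate 1, of 43050 peaks, had 337 per Mb in the V run spans and 404 per Mb over chromosome V. That of replicate 2, of 50310 peaks, had 452 per Mb in the spans and 471 per Mb over V. The median signal in the spans was 18.2 in replicate 1 and 17.3 in replicate 2, against 18.4 and 19.5 over V, and the highest there were 43.8 and 42.2. In replicate 1, 62 of the 102 run genes had such a ranked summit, and in replicate 2, 75 of 102. The same share was not counted over other genes, so these counts describe the stretches and not the receptor genes. The V run stretches were therefore not blank in the data, while their spans held 0 summits in each of the 4 thresholded lists.

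On V, position along the chromosome also went with binding. In the outer 25% of V at either end, 2 of 111 receptor genes (1.8%) and 40 of 2259 other genes (1.77%) were bound. In its central part 4 of 56 receptor genes (7.14%) and 92 of 2568 others (3.58%) were bound. The Wilson intervals of the outer and central shares on V overlap for receptor genes and do not overlap for other genes. On the other autosomes other genes showed no such order, with 247 of 5236 (4.72%) in the outer part and 314 of 6933 (4.53%) in the central part. Receptor genes on those autosomes had the same order as on V, again with overlapping intervals. They were at 0 of 40 in the outer part, which allows up to 7.5%, and 2 of 39 (5.13%) in the central part. V run genes were at 0 of 69 in the outer part and 0 of 33 in the central part, against 2 of 42 (4.76%) and 4 of 23 (17.4%) outside runs. The central run count allows a share of up to 9.09%, so at this number of genes only part of the gap can be read.

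The nearest summit was far from most receptor genes of V. The median distance from their 5′ ends was 114186 bp, with quartiles of 58396 and 182758 bp, against 40861.5 bp for receptor genes elsewhere. For other protein-coding genes it was 56291 bp on V and 34659 bp elsewhere. Within 5 kb of a summit were 9 V receptor genes (5.39%) and 16 elsewhere (15.7%), and beyond 50 kb were 129 (77.2%) and 44 (43.1%). Other protein-coding genes had the same order, with 7.52% on V and 11.9% elsewhere within 5 kb. Beyond 50 kb were 54.0% of them on V and 38.2% elsewhere. Among the V run genes the nearest to a summit was nhr-102, at 2475 bp, the median was 124927 bp, and the farthest was nhr-252, at 280926 bp.

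**Figure D4:**
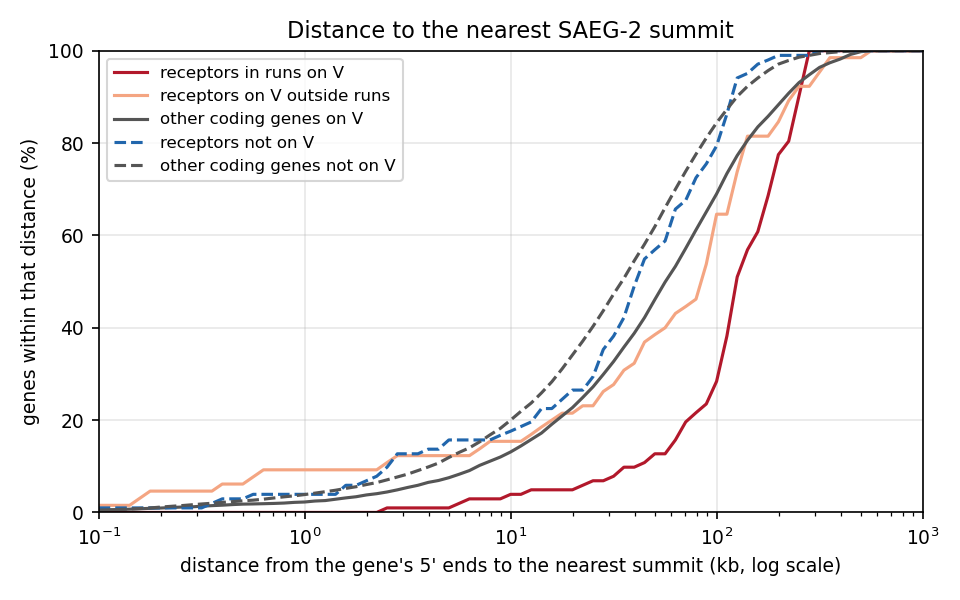
Cumulative share of genes (%) by distance from their 5′ ends to the nearest conservative summit, in kb on a log scale. The curve of receptor genes in V runs has a median of 124927 bp and stays lowest in the plot at 199.5 kb, where it stands at 77.5%, against 88.3% for other genes of V; all of it lies within 280926 bp.

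Chromosome X, singled out after the counts had been seen, had the highest receptor share. On X 5 of 23 receptor genes were bound (21.7%, 9.66 to 41.9), nhr-1, nhr-3, nhr-17, nhr-35 and nhr-48, against 140 of 2708 other X genes (5.17%, 4.4 to 6.07), and these intervals do not overlap. On the autosomes other than V 2 of 79 were bound (2.53%, 0.697 to 8.77), against 561 of 12169 other genes (4.61%). Chromosome X also had the most peaks per Mb of any, 15.2, where V had 8.75. Per Mb of windows and genes the X receptors had 21.5 summits (6.97 to 50.1) and other X genes 12.4 (10.5 to 14.6), and the intervals of these rates do overlap. The X receptor genes had a median length of 4483 bp, against 2531.5 bp for other X genes, and nhr-3 and nhr-17 were bound in introns alone.

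Long receptor genes carried most of the binding. In the longest of 3 length classes, above 2917 bp, 10 of 87 receptor genes were bound (11.5%, 6.36 to 19.9), against 443 of 6566 other genes (6.75%). In the middle class 3 of 159 (1.89%) and 196 of 6498 (3.02%) were bound. In the shortest, up to 1458 bp, 0 of 23 were, which allows up to 13.0%, and 194 of 6640 others (2.92%). The longest class thus had the highest share among receptors and among other genes, while the short and middle classes of other genes were alike. A summit anywhere in the gene counts, so longer genes offer more sequence. Of the 13 bound receptor genes, 3 were bound through the gene body alone. The 10 long genes were 3 of 34 on V (8.82%) and 7 of 53 elsewhere (13.2%). The V receptor genes were shorter, with a median of 2146 bp, against 3143.5 bp for those elsewhere; the part of length in the difference between chromosomes was not tested.

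By known role, the lists held few genes each and were chosen with earlier results of these data known. Their counts stand beside shares of 4.83% of receptor genes and 4.24% of all protein-coding genes. No contrast between roles can be read from them. Of the 3 receptors of the propionate and vitamin B12 response, nhr-68 and nhr-114 were bound, and nhr-10 was 25956 bp from the nearest summit. Of 5 receptors of stress, xenobiotic and metal responses, nhr-57 and nhr-8 were bound. nhr-14, which governs iron uptake in the intestine, was 2546 bp away, nhr-86, a sensor of bacterial toxins, 35868 bp, and nhr-31, which acts in the excretory cell, 77576 bp. Of 9 receptors conserved across phyla, nhr-8 and nhr-48 were bound.

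None of 6 fat metabolism receptors was bound. nhr-49, the main switch for fatty acid breakdown and desaturation, was 10930 bp from a summit. Its partners nhr-66, nhr-80 and nhr-13 were at 16526, 74414 and 89767 bp, and nhr-62 and nhr-64 at 40256 and 63829 bp. None of 6 moulting and larval development receptors was bound either. nhr-60 was at 5620 bp, nhr-67, the tailless relative, at 9611 bp, and nhr-40 at 13910 bp. nhr-25, the relative of Ftz-F1, was at 17486 bp, nhr-85, the relative of Rev-erb, at 63812 bp, and nhr-23, the relative of ROR that drives moulting, at 116444 bp. A count of 0 in 6 allows a wide range of shares, so these groups show only where the sites were not.

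Among the receptors with other names, 1 of 5 was bound: daf-12, which governs dauer formation. It had an intron peak of 120 and an overlapping one of 28.6, with 74.6 in replicate 2, within its list, and 48.2 in replicate 1, outside it. None of the 7 genes that make or clear the DAF-12 hormone was bound. Of 11 cofactors found, 3 were bound. The acetyltransferase gene cbp-1 had a peak of 348, in both lists at 148 and 203 in replicates 1 and 2. The gene of the DAF-12 corepressor, din-1, had 3 peaks of 110, 55.3 and 21.0, of which only that of 55.3 was in a replicate list, at 73.0 in replicate 1. egl-27, a relative of the MTA proteins of deacetylase complexes, had 103, with 66.4 in the list of replicate 2 and 32.3 in replicate 1 outside it.

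Genes of pathways linked to these receptors gave few sites. Of 10 genes listed for the propionate shunt and the methionine cycle, 2 were bound, acdh-1 and alh-8. They encode the first and last enzymes of the propionate shunt. The acdh-1 peaks had 88.6 and 76.3, in neither replicate list, and the alh-8 peak had 8.87, with 55.6 in the list of replicate 2 and 30.7 in replicate 1 outside it. Of 9 targets of NHR-49 and NHR-80, 1 was bound, which is again acdh-1. These lists, like those of the cofactors and the DAF-12 hormone genes, hold too few genes for a share to be read against the 4.24% of all genes.

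The broader non-conservative list of 1307 peaks bound 15 receptor genes, where 4.91% of all protein-coding genes were bound. It added nhr-27 and nhr-34. The nhr-34 peak was in an intron with a value of 86.5, and had 19.6 in replicate 1 and 60.2 in replicate 2. The nhr-27 peak had 70.1, 32.1 in replicate 1 and 36.9 in replicate 2, and lay 20899 bp from the nearest 5′ end of this long gene, a member of a run on X, and 574 bp from the 5′ end of str-124, a gene of a chemoreceptor family. Neither gene was bound in a replicate list.

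Just beyond the promoter window stood nhr-32, with a summit 1532 bp upstream of value 89.3, and 31.2 and 56.4 in replicates 1 and 2. Next was nhr-21, with a summit 1564 bp upstream of value 145, and 55.5 and 82.3 in replicates 1 and 2, both in their lists. The nhr-21 site was higher than all receptor peaks counted as bound except that of nhr-68, so the edge of the window decided its place. nhr-105 was at 2218 bp with 87.8, nhr-69 at 2248 bp with 70.3 in a tRNA gene, and nhr-286 at 2318 bp from the nhr-135 peak.

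The ranked conservative list held peaks of IDR up to 0.05 at 10 of the 254 receptor genes that no thresholded list bound (3.94%). It held them at 599 of 18635 other such genes (3.21%). The receptor peaks among these had an IDR of 0.0149 to 0.0441, so they missed the threshold of 0.01. The receptor count was 5 of 161 on V (3.11%) and 5 of 93 elsewhere (5.38%). The highest were at nhr-130, with 71.4 in the conservative list and 34.3 and 35.8 in replicates 1 and 2, nhr-66 with 70.0, nhr-61 with 69.3, nhr-137 with 65.5 and nhr-119 with 64.7. nhr-130, a member of the run of 12, and nhr-183 were the only V run genes among the 10.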

How the data were processed

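ChIP-seq peak lists of both replicates were used as deposited. The signal values are the authors', on a scale not stated, and the deposited ranked lists give −log10 IDR, capped at 5. Per the deposited file list, the whole-series lists pool the alignments of both replicates, a replicate's own lists use its alignments alone, and each list also used a file of unstated kind. The assembly is ce11, per the labels, the same sequence as WBcel235. Names of the aligner and peak caller: not given in the sources used here.

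Summits were assigned to protein-coding genes of Ensembl release 115 with Python 3.11.15, numpy 2.4.6, pandas 2.3.3 and scipy 1.17.1, and the assignment was checked on simulated data. In the RefSeq genome 99.8% of 16255 plus-strand coding transcripts start with ATG at the annotated place, and 0 peaks ran past a chromosome end. The ranked list of the whole series is called conservative here, a word its own label does not carry. It has 1203 peaks at an IDR up to 0.01, of which 58 are missing from the conservative thresholded list. Replicate values of a pooled peak come from each replicate's ranked list, by an overlap of at least 1 bp. No significance test was run over the members: shares have 95% Wilson intervals. The text names members bound in any thresholded list, the 5 unbound members nearest to a summit, the 5 highest members under the IDR threshold, and members of the role lists. Members and lists were chosen with earlier results of these data known. Alternatives changed the list, replicate, threshold, window, overlap, assignment, tRNA filter and run distance.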

Additional observations from a re-analysis of the deposited data

How the results depend on the processing

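The count of bound receptor genes, 13, became 4 with peaks of both replicates, 5 in the upper 50% by signal value and 5 to 6 with either replicate left out. It was 9 to 15 under the other alternatives. Elsewhere than V the 7 became 2, 3 and 3 to 3 under the same settings, and 4 through the promoter window alone. On V the 6 became 2, 2 and 2 to 3, and 2 with summits in reach of 1 protein-coding gene alone, an alternative added after seeing the data. In V runs the count of 0 became 2 with runs of 2 or more members, also added after seeing the data. It was 0 under the other 14 alternatives, of which 8 could only lower it. Those that could have raised it were the non-conservative list, each replicate's list, the ranked peaks with an IDR of 0.01 or lower, overlap of the peak interval and runs joined at 50 kb (113 genes). The receptor share of 4.83% became 1.49% with peaks of both replicates, 1.86% in the upper 50% and 1.86 to 2.23% with a replicate left out. The share of other protein-coding genes, 4.23%, became 1.25%, 2.31% and 1.91 to 2.08% under these settings. It was 3.89% away from tRNA genes, 3.56% with a narrower window, 3.16% by nearest gene, 4.9% with the non-conservative list, 4.6% by overlap of the peak interval and 3.09% through the promoter window alone. Receptor summits per Mb, 12.1, became 3.46 with peaks of both replicates, 4.33 in the upper 50%, 20.4 in promoter windows alone and 4.33 to 5.2 with a replicate left out. No paired analysis was possible because there is 1 group. The limits are 14 receptor peaks, 2 replicates, unknown depth and lists of unequal length.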
